A study of Mus musculus with 6 samples.

Results

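The T cell receptor (TCR) complex and the molecules that act next to it were described here through 9 genes, Cd3d, Cd3e, Cd3g, Cd247, Lck, Zap70, Lat, Cd5 and Cd6, out of 27998 genes listed in the files. The genes were taken by symbol, all 9 were found, and each had UMIs (unique molecular identifiers, 1 for each captured transcript) in every library. The cells were mouse invariant natural killer T (iNKT) cells sorted from 3 organs (liver, spleen, lymph node), 2 libraries each, and were profiled by droplet single-cell RNA sequencing. The 3 groups shared the genotype (wild-type C57BL/6), the age of 5 weeks, the removal of CD8 and B220 positive cells and the sort on TCR-β and binding of a CD1d tetramer, and they differed in the organ. The labels did not give the sex of the mice, a batch or how many mice went into a library, and they named the molecule as nuclear RNA.

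As background, iNKT cells carry a semi-invariant αβ TCR that sees lipids on CD1d. The TCR chains have no signalling tail of their own and depend on the CD3 γ, δ and ε chains (Cd3g, Cd3d and Cd3e) and the ζ chain (Cd247), whose motifs are phosphorylated by the kinase Lck. The kinase Zap70 then docks on ζ and phosphorylates the membrane adaptor Lat, on which the signalling complex is built, while Cd5 and Cd6 are scavenger receptors of the T cell surface that tune this signal. The sort required a surface TCR in every organ, and the comparisons ask how much transcript of each gene the cells held. The TCR chain genes themselves were not analysed here.

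After filtering, the libraries held 2638 to 2861 cells and 4768016 to 11086603 UMIs. The median cell had 3592 and 2880 UMIs for liver, 1724 and 1554 for spleen and 1730.5 and 1470 for lymph node, so liver cells were the deepest. Xist had 5425 to 10553 UMIs in libraries of liver and spleen and 0 in both of lymph node, whereas Y chromosome genes had 1363 and 1581 UMIs in lymph node and 0 elsewhere. In comparisons with lymph node, sex and organ therefore cannot be told apart. The 4 iNKT markers (Zbtb16, Klrb1c, Il2rb and Slamf6) summed to 1315 and 1320 CPM (counts per 1000000 UMIs) for liver, 713 and 611 for spleen and 329 and 312 for lymph node, and of them Zbtb16, the lineage factor PLZF, stood at 71.3 to 100.2 CPM in all libraries. The CD8 T cell markers Cd8a and Cd8b1 summed to 2.45 to 7.02 CPM, with Cd8a at 0 in lymph node and spleen. The 5 B cell markers summed to 2.49 to 16.98 CPM and the 6 hepatocyte markers to 1.66 to 4.35 CPM. The 7 myeloid markers summed to 255 to 374.6 CPM, most of it from Cst3 at 190.4 to 267.7 CPM. Between 6 and 20 cell barcodes were shared by any pair of libraries.

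The genes for the 3 CD3 chains lie together on chromosome 9 (GRCm38, GENCODE annotation). Cd3g (ENSMUSG00000002033, 44969572 to 44980431, minus strand) and Cd3d (ENSMUSG00000032094, 44981786 to 44987339, plus strand) start back to back with 1354 bases between them. Cd3e (ENSMUSG00000032093, 44998740 to 45009627, minus strand) follows 11400 bases beyond Cd3d. The 250 bases upstream of the RefSeq start of each are shown because Cd3e and Cd3g moved alike across organs and Cd3d did not, and those of Lck (chromosome 4, first of 2 RefSeq starts) because it moved the other way. They are given 5′ to 3′ on the strand of the gene from GRCm38.p6, at chr9:44981536-44981785 (plus), chr9:44980432-44980681 (minus), chr9:45009612-45009861 (minus) and chr4:129573642-129573891 (minus). Capitals mark AGGAAG, the core bound by many ETS factors, and CAGGTG, an E-box, on either strand.
Cd3d: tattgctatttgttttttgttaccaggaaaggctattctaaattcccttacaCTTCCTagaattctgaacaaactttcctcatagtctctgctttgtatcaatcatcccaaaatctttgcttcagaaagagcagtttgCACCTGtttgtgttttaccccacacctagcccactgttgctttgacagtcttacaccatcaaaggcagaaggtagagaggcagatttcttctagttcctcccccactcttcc
Cd3g: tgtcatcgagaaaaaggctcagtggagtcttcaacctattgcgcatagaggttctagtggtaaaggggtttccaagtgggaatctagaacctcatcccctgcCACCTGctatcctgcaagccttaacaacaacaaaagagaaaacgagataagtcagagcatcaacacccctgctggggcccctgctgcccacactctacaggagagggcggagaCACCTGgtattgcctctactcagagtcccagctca
Cd3e: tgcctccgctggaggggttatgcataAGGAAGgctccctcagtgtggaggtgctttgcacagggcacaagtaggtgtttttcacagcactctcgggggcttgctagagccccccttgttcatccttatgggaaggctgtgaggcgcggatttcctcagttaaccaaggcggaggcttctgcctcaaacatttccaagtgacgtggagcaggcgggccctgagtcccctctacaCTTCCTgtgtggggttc
Lck: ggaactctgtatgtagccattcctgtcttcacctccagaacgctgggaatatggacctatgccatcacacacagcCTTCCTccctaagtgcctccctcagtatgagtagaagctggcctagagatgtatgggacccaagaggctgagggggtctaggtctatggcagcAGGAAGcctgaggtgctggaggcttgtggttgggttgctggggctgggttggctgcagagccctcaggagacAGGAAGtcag
Matches differed between these windows. The ETS core occurred once upstream of Cd3d, in 2 places upstream of Cd3e, in 3 upstream of Lck and not upstream of Cd3g, and 29.5% of 32851 windows of this length held it. The E-box occurred once upstream of Cd3d and in 2 places upstream of Cd3g, but not upstream of Cd3e or Lck, against 17.2% of windows. Of TGTGGT (a Runx motif, 14.0% of windows) and CTTTGA (a Tcf motif, 13.8% of windows), both searched on both strands, Lck held 1 of the first and Cd3d 2 of the second. A match is a run of letters and not a measured site.

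The level of Cd3e rose from liver to spleen to lymph node. Summed over all cells of a library, Cd3e, the ε chain, stood at 624 and 771 CPM in liver, 954 and 900.0 CPM in spleen and 1110 and 1155 CPM in lymph node, and the organs did not overlap. On the log2 scale Cd3e was lower in liver than in lymph node by -0.75 ± 0.13 (SE), with an adjusted p of 1.55e-05 in edgeR's quasi-likelihood test over 10190 genes. It was lower in liver than in spleen by -0.49 ± 0.13 (adjusted p = 0.00497). Without the first liver library, in which Cd3e was lowest, the difference from spleen was -0.31 and lost its call (adjusted p = 0.122). Between spleen and lymph node the difference of -0.27 ± 0.13 was not called (adjusted p = 0.153).

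Cd3g, the γ chain, followed the same order. It stood at 1763 and 1962 CPM in liver, 2177 and 1999 CPM in spleen and 2494 and 2564 CPM in lymph node, where both libraries lay above all others. Its difference between liver and lymph node was -0.50 ± 0.13 (adjusted p = 0.00217), and neither step beside spleen was called (adjusted p = 0.157 for liver over spleen and 0.175 for spleen over lymph node). Cd247, the ζ chain (ENSMUSG00000005763, chromosome 1, 165788681 to 165877277), was the least abundant of the 4. It had 163 and 154 CPM in liver, 150 and 158 CPM in spleen and 195 and 178 CPM in lymph node, and liver over lymph node was -0.29 ± 0.11 (adjusted p = 0.0441). This call for Cd247 held in 4 of 15 alternative settings, with adjusted p between 0.0232 and 0.296, and every setting that left out 1 library lost it, with folds of -0.37 to -0.21.

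Cd3d, the δ chain, did not follow its neighbours and was highest in spleen. Its levels were 1899 and 2052 CPM in liver, 2337 and 2272 CPM in spleen and 1942 and 1725 CPM in lymph node, so the spleen libraries stood above the other 4, which overlapped. Spleen over lymph node was 0.35 ± 0.13 (adjusted p = 0.0487), a call held in 9 of 15 settings and lost when either library of spleen or of lymph node was left out, with folds of 0.25 to 0.45 and adjusted p of 0.0757 to 0.412. Liver over spleen was -0.30 ± 0.13 (adjusted p = 0.077, and 0.038 with the replicate number as a block), and liver over lymph node was 0.05 ± 0.13 (adjusted p = 0.772).

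**Figure D1:**
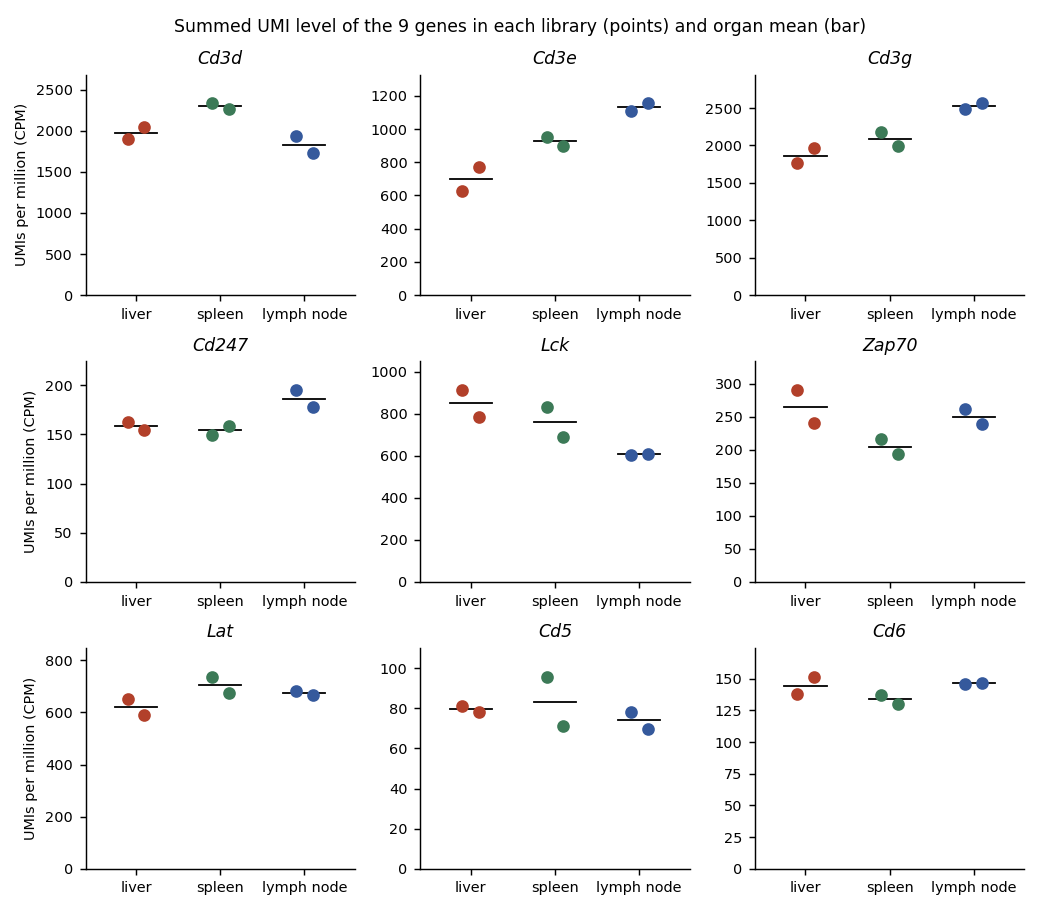
Level of each of the 9 genes, in CPM summed over all cells of a library, by organ. Points are the 2 libraries of an organ and bars their mean; Cd3e climbs from 624 CPM in a liver library to 1155 CPM in a lymph node library, and Lck falls from 911 CPM in a liver library to 605 CPM in a lymph node library.

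The CD3 chains were also set against each other within a library, a comparison that needs no scaling between libraries. Their summed level, unlike the shares and ratios, does depend on such scaling. The 4 genes together had 4449 and 4939 CPM in liver, 5618 and 5329 CPM in spleen and 5741 and 5622 CPM in lymph node, and the liver libraries were the lowest. Cd3e supplied 14.0% and 15.6% of their UMIs for liver, 16.98% and 16.88% for spleen and 19.3% and 20.6% for lymph node. There were 0.329 and 0.376 Cd3e UMIs for each Cd3d UMI for liver, 0.408 and 0.396 for spleen and 0.572 and 0.67 for lymph node, so the organs did not overlap in this ratio either. The Cd3d share was alike in liver (42.7% and 41.5%) and spleen (41.6% and 42.6%). Cd3g outnumbered Cd3d in lymph node, with 1.28 and 1.49 UMIs for each Cd3d UMI, and not in liver (0.929 and 0.956) or spleen (0.932 and 0.88). The Cd247 share was 3.66% and 3.12% for liver, 2.66% and 2.97% for spleen and 3.40% and 3.16% for lymph node, with liver and lymph node overlapping. UMIs count 3′ ends, and levels of different genes were not adjusted for how well each is captured.

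With 2 libraries per organ, an exact permutation test of the F statistic (15 arrangements, no direction) cannot give a p below 0.0667. The summed CD3 level, the Cd3e share, the Cd3g share, the Cd3e to Cd3d ratio and the ratio of Lck to Cd3e each reached this smallest exact p of 0.0667. The exact p was 0.133 for the Cd3g to Cd3d ratio, 0.2 for the Cd3d share and 0.333 for the Cd247 share. With TMM-scaled totals, the scaling of the edgeR fits, the exact p of the summed CD3 level was 0.133. Over these 8 relations the adjusted values ran from 0.107 to 0.333, so none passed 0.05, which the design did not allow.

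**Figure D2:**
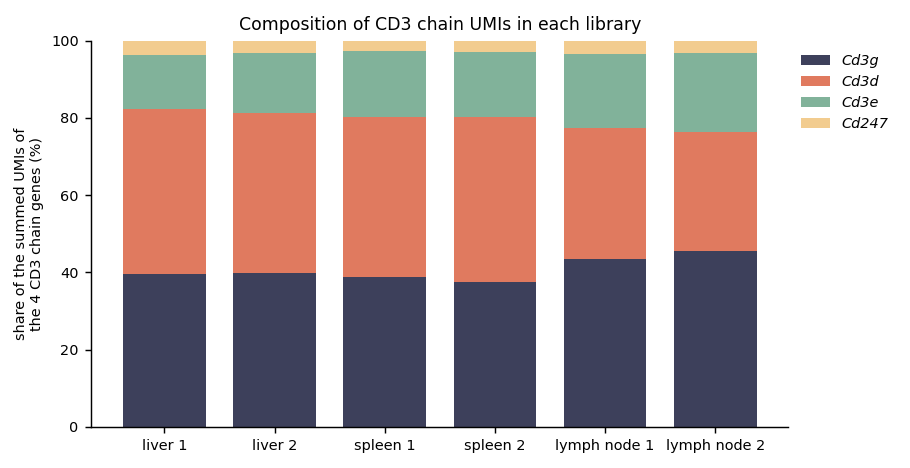
Share of each gene in the summed UMIs of the 4 CD3 chain genes (vertical axis, percent), 1 bar for each library. The Cd3e part grows from 14.0% in a liver library to 20.6% in a lymph node library, and the Cd3d part is smallest in the lymph node libraries, at 33.8% and 30.7%.

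Lck ran against Cd3e, Cd3g and Cd247 between liver and lymph node, but not against Cd3d, which like Lck was called higher in spleen than in lymph node. This Src family kinase (ENSMUSG00000000409, chromosome 4, 129548344 to 129573641, minus strand) had 911 and 785 CPM in liver, 831 and 687 CPM in spleen and 605 and 608 CPM in lymph node. Both lymph node libraries were below the other 4, while liver and spleen overlapped. Liver over lymph node was 0.43 ± 0.12 (adjusted p = 0.00581) and spleen over lymph node 0.34 ± 0.12 (adjusted p = 0.0453). Lck was called in liver over lymph node in 13 of 15 alternative settings. It lost that call without liver replicate 1 (0.34, adjusted p = 0.0561) or lymph node replicate 2 (0.41, adjusted p = 0.0661), and the spleen call held in 9 of 15 settings, with adjusted p of 0.177, 0.231 and 0.384 without lymph node replicate 1, lymph node replicate 2 or spleen replicate 1. Liver over spleen was 0.08 ± 0.12 (adjusted p = 0.662). The ratio of Lck to Cd3e UMIs was 1.46 and 1.02 for liver, 0.871 and 0.764 for spleen and 0.545 and 0.527 for lymph node.

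The other 4 genes were not called in the organ comparisons over all cells, although Zap70 and Lat were in some alternative settings. Zap70 (ENSMUSG00000026117, chromosome 1, 36761798 to 36782818) had 290 and 239.7 CPM in liver, 216 and 193 CPM in spleen and 261 and 238 CPM in lymph node. Its spleen libraries were the lowest, and liver over spleen was 0.29 ± 0.12 (adjusted p = 0.0629), a difference that 4 of 15 settings called, the replicate block among them (adjusted p = 0.0259). Lat (ENSMUSG00000030742, chromosome 7, 126363824 to 126369570) ranged from 592 to 736 CPM and was lower in both liver libraries than in either of spleen, a difference of -0.26 ± 0.12 (adjusted p = 0.0919) that 1 of 15 settings called, the replicate block (adjusted p = 0.0451). Cd5 (ENSMUSG00000024669, chromosome 19, 10717116 to 10739002) ranged from 69.5 to 95.6 CPM and Cd6 (ENSMUSG00000024670, chromosome 19, 10789341 to 10830058) from 130.4 to 151 CPM. For Cd6, the flattest of the 9 across libraries, the organ differences lay between -0.11 ± 0.12 and 0.03 ± 0.12. Cd5 rested on 254 to 578 UMIs in a library.

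Counted together, 4 of the 9 genes were called in liver over lymph node (3 lower and 1 higher), where 37.5% of all 10190 tested genes were called. In liver over spleen 1 was called, against 25.6% of all genes (with the replicate number as a block 4 were, 1 higher and 3 lower, and 3030 of all genes against 2610), and in spleen over lymph node 2 were called (both higher), against 18.2%. The median log2 fold of the 9 genes was -0.07, -0.14 and -0.11 in these comparisons, against medians of 0.01, 0.02 and 0.01 over all genes. The comparisons share libraries and are not independent of each other.

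**Figure D3:**
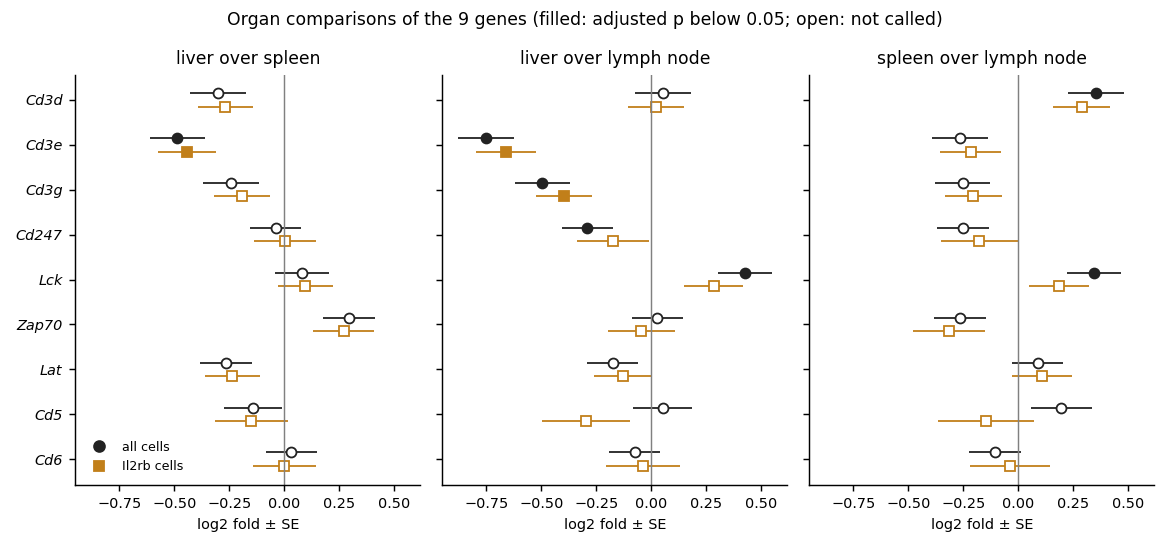
Log2 fold with its SE (horizontal axis) for each gene in the 3 organ comparisons, over all cells (circles) and over cells with Il2rb UMIs (squares). Filled symbols passed an adjusted p of 0.05; Cd3e is at -0.75 over all cells and -0.66 in Il2rb cells for liver over lymph node, while Lck is at 0.43 and 0.28.

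Depth changed how the detection of these genes looked per cell. Without correction, Cd3e had at least 1 UMI in 75.6% and 74.3% of liver cells, 70.2% and 67.2% of spleen cells and 72.3% and 71.2% of lymph node cells, which would put liver first. When each cell was thinned to 1000 UMIs (0 to 488 shallower cells of a library were left out), the shares were 34.0% and 41.5% for liver, 50.8% and 48.5% for spleen and 55.7% and 57.4% for lymph node. The order of the organs thus turned and matched that of the summed levels. Cd3g gave 68.0% and 74.0%, 80.1% and 77.1%, and 82.9% and 85.0% at equal depth. Lck moved from 87.0% and 78.0% of liver cells against 53.3% and 50.7% of lymph node cells without correction to 46.8% and 42.1% against 35.7% and 38.2% at equal depth. These totals included the ribosomal genes, which took 34.4% and 32.0% of UMIs in liver and 23.2% to 28.5% in the other libraries, so that fewer UMIs were left for other genes in liver. With those genes left out first and each cell thinned to 500 of the remaining UMIs, a setting added after the data were seen, Cd3e was found in 27.8% and 31.2% of liver, 39.4% and 36.2% of spleen and 42.3% and 42.2% of lymph node cells. Cd3g then gave 59.2% and 63.8%, 65.8% and 63.4%, and 70.4% and 70.6%, with liver and spleen overlapping, and Lck 37.4% and 33.7% of liver cells against 26.0% and 26.5% of lymph node cells. Thinning to 500 UMIs of all genes kept liver lowest for Cd3e, at 19.0% and 22.3%, against 29.02% and 28.85% for spleen and 33.4% and 36.0% for lymph node.

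At 1000 UMIs a cell, 94.8% to 98.5% of cells had a UMI of at least 1 CD3 chain gene, but only 1.39% to 4.76% had all 4, and the median cell held 3 of the 9 genes. Exact 95% binomial intervals for these shares cover counting error only. Cd3g was found in 68.0% to 85.2% of cells with a Cd3d UMI and in 68.1% to 84.4% of cells without one. Cd6 was found in 9.80% to 16.5% of cells with a Cd5 UMI and in 8.51% to 10.0% of cells without one, higher beside Cd5 in 6 of 6 libraries, and Cd5 was seen in 115 to 163 cells of a library. In counts this sparse a difference of this size was not read as a relation. The 32 cells with UMIs of at least 3 B cell or myeloid markers held Cd3d in 62.5% and Cd3e in 40.6% of cells, below the 91.8% and 71.9% of all cells, at median depths of 1856 and 1953 UMIs. In this sort such cells cannot be told from iNKT cells or doublets, and no level of free RNA was read from them.

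**Figure D4:**
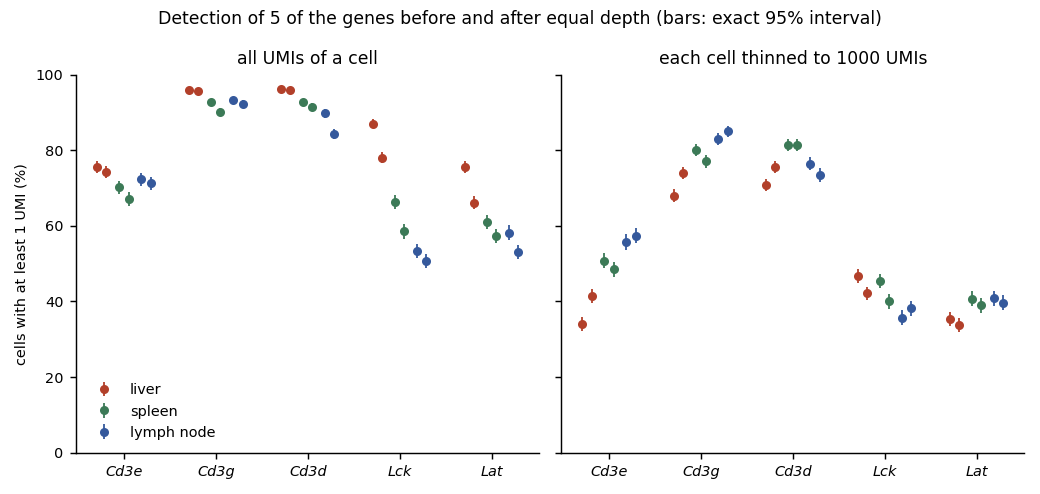
Percent of cells with at least 1 UMI of 5 of the genes by organ, with all UMIs of a cell (left) and after thinning each cell to 1000 UMIs (right). Points are libraries and bars exact 95% binomial intervals; for Cd3e the liver libraries move from the top (75.6% and 74.3%) to the bottom (34.0% and 41.5%).

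The share of cells with Il2rb UMIs differed widely between organs, and in a sum over cells a shift in the mixture and a change per cell cannot be told apart. The comparison was therefore repeated in cells with UMIs of Il2rb, the IL-2 and IL-15 receptor β chain that is high in iNKT1 cells, and none of Ccr6, a chemokine receptor of iNKT17 cells. This set, which lies within the cells above, held 79.3% and 74.5% of liver cells, 31.3% and 23.4% of spleen cells and 11.1% and 10.8% of lymph node cells, and since it needs a UMI it also depends on depth. Cd3e stood at 623.5 and 779 CPM in liver, 924 and 913 CPM in spleen and 1018 and 1093 CPM in lymph node in these cells. The organs were again apart, with liver over lymph node at -0.66 ± 0.14 (adjusted p = 0.000675) and liver over spleen at -0.44 ± 0.13 (adjusted p = 0.021). The first of these calls held in 17 of 17 alternative settings and the other in 13 of 17. The call over spleen was lost without liver replicate 1 (-0.28, adjusted p = 0.293), spleen replicate 1 (-0.44, adjusted p = 0.103) or spleen replicate 2 (-0.44, adjusted p = 0.136), and with libraries thinned to 1 total (-0.35, adjusted p = 0.167).

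Cd3g had 1766 and 1953 CPM in liver and 2306 and 2357 CPM in lymph node among Il2rb cells, a difference of -0.40 ± 0.13 (adjusted p = 0.0294). The call for Cd3g held in 8 of 17 settings and was lost when any library but liver replicate 2 was left out, with folds of -0.40 to -0.30. Lck had 909 and 789 CPM in liver, 820.5 and 706 CPM in spleen and 654 and 673 CPM in lymph node, and liver over lymph node, at 0.28 ± 0.13, was not called (adjusted p = 0.148). Thus 1 gene was called in liver over spleen (15.6% of 8155 genes tested were), 2 in liver over lymph node (17.5%) and 0 in spleen over lymph node (4.41%), where 1 gene had an unadjusted p below 0.05 and DESeq2 also called 0.

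Within an organ, cells with Il2rb and no Ccr6 UMIs were set against cells with UMIs of neither. None of the 9 genes showed a called difference. The 600 lymph node cells with Ccr6 and no Il2rb UMIs were not part of this comparison and are described below. With the library as a block, the number of calls was 0 in liver (1.57% of 9595 genes were called), 0 in spleen (0.657%) and 0 in lymph node (2.62%). A cell without an Il2rb UMI may still hold the transcript. When cells were thinned to 1000 UMIs, the share with Il2rb UMIs fell from 79.3% to 39.4% in liver replicate 1. The sets are thus partly separated by depth, and 0 calls cannot show that cells with and without Il2rb are alike. The differences of Cd3e between the sets were 0.02 ± 0.05 for liver, -0.02 ± 0.05 for spleen and -0.08 ± 0.06 for lymph node. The largest difference was that of Cd5 in lymph node, 0.24 ± 0.18 (adjusted p = 0.685), and the smallest adjusted p was that of Cd3g there, 0.123 at -0.12 ± 0.04. Tests of whether these differences changed between organs also called 0 of the 9 genes for liver against spleen (0.0625% of genes), liver against lymph node (0.354%) and spleen against lymph node (0.302%). Over all these tests 1 value had an unadjusted p below 0.05, Cd3g in lymph node, and DESeq2 called 0.

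The widest contrast among the 9 genes lay inside the lymph node, between cells with Ccr6 UMIs and no Il2rb (279 and 321 cells) and cells with Il2rb UMIs and no Ccr6 (294 and 307 cells). Cd5, a negative regulator of TCR signalling, had 41.0 and 23.9 CPM in Ccr6 cells and 87.1 and 95.5 CPM in Il2rb cells, from 18, 11, 39 and 42 UMIs. Both Ccr6 values lay below both Il2rb values, and Ccr6 over Il2rb cells was -1.55 ± 0.29 on the log2 scale (adjusted p = 7.32e-06 in edgeR). For the genes called in this contrast, the SE was close to the counting error of the UMIs alone. Their p-values therefore say little about the spread between libraries, of which the lymph node had 2. Cd6, its neighbour 50338 bases away on the same strand of chromosome 19, had 81.9 and 89.2 CPM against 140.6 and 141 CPM, a difference of -0.77 ± 0.21 (adjusted p = 0.00425). The call for Cd5 held in 14 of 16 alternative settings and that for Cd6 in 13 of 16. The 16 settings of this contrast include those that left out a liver or spleen library, which gave no counts to it. Leaving out lymph node replicate 2 ended both calls, and leaving out replicate 1 ended that for Cd6.

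Lck was lower in Ccr6 cells too, with 498 and 469.7 CPM against 654 and 673 CPM, or -0.50 ± 0.09 (adjusted p = 2.38e-06), and was called in 16 of 16 alternative settings. Cd3d had 1761 and 1546 CPM against 1935 and 1768 CPM, or -0.21 ± 0.06 (adjusted p = 0.0026). Across libraries the groups barely stood apart for Cd3d, at 1761 CPM in the higher Ccr6 value (replicate 1) and 1768 CPM in the lower Il2rb value (replicate 2). Within each library the Ccr6 value was the lower. Lat rose, with 787 and 818 CPM in Ccr6 cells against 676 and 609 CPM, or 0.27 ± 0.08 (adjusted p = 0.0154). The call for Lat was lost when cells were thinned to 1000 UMIs before they were assigned, at 0.07 (adjusted p = 0.914), without lymph node replicate 2, at 0.16 (adjusted p = 0.539), without the top 2% of cells by UMIs, at 0.19 (adjusted p = 0.193), and in DESeq2, at 0.29 (adjusted p = 0.0799).

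The remaining genes were not called between the sets. Cd3e was higher in Ccr6 cells by 0.18 ± 0.07 (adjusted p = 0.0663) and was called in 5 of 16 settings. Cd3g differed by 0.08 ± 0.05, Zap70 by -0.35 ± 0.14 (adjusted p = 0.119, and 0.0387 without the top 2% of cells) and Cd247 by -0.34 ± 0.18 (adjusted p = 0.275). In all, 5 of the 9 genes were called (1 higher and 4 lower in Ccr6 cells), against 9.31% of 9595 genes. DESeq2 called 2 of them, Cd5 and Lck, both lower. With 1 lymph node library left out, the number called was 3 without replicate 1 and 1 (Lck) without replicate 2, while calls over all genes went from 893 to 534 and 446, and the fold of Cd5 was then -1.14 (adjusted p = 0.0696). Cd6 lost its call without replicate 1 (-0.69, adjusted p = 0.171) and without replicate 2 (-0.84, adjusted p = 0.0795), as did Cd3d (-0.22 and -0.19, adjusted p = 0.0642 and 0.118).

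The sets were checked against a further subset marker. Tbx21, the transcription factor of iNKT1 cells, had 13.7 and 6.52 CPM in Ccr6 cells and 46.9 and 63.6 CPM in Il2rb cells. Ccr6 cells were also deeper, with medians of 2011 and 1751 UMIs against 1635 and 1373, and their part in the differences of Cd5, Cd6, Lck, Cd3d and Lat was not tested beyond the thinning. After thinning before assignment, Cd5 was still lower by -1.45, but on fewer cells it was not called (adjusted p = 0.27), whereas Cd6 moved to -1.63 and Cd3d to -0.43, both still called. Outside the lymph node only 6 liver and 15 spleen cells had Ccr6 and no Il2rb UMIs, too few for a test. Pooled, they held 1 UMI of Cd5 in liver and 1 in spleen, and Lck at 740 CPM in liver (exact 95% Poisson interval 445 to 1155) and 639.9 CPM in spleen (366 to 1039), against 484 CPM in lymph node (439 to 531).

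**Figure D5:**
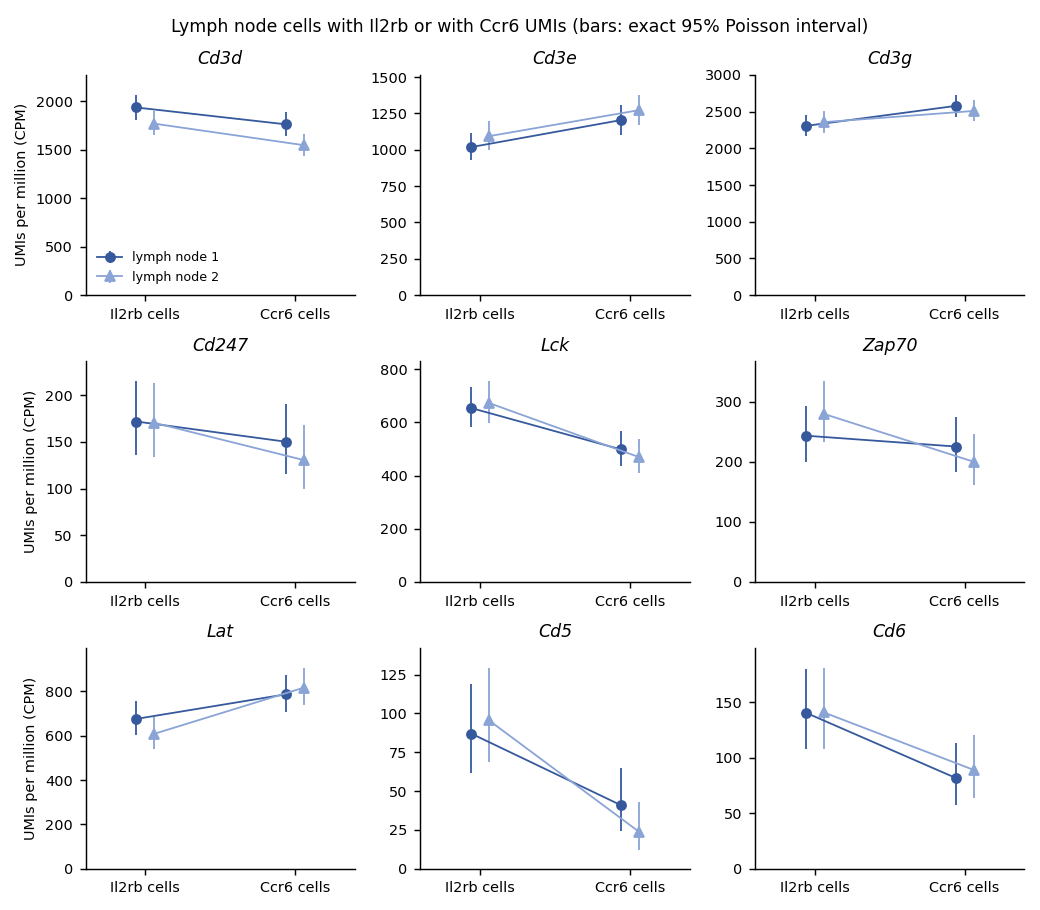
Levels of the 9 genes, in CPM, in lymph node cells with Il2rb UMIs and with Ccr6 UMIs, with a line for each of the 2 libraries and exact 95% Poisson intervals, which cover counting error only. Cd5 falls from 87.1 and 95.5 CPM to 41.0 and 23.9 CPM, and Lat goes up in both libraries.

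Beyond the 9 genes, lists of the wider TCR pathway (coreceptors, kinases, adaptors, effectors and negative regulators, 42 of 43 genes tested) were mostly higher in liver where they were called. Of these, 28 were called in liver over lymph node (23 higher and 5 lower), 17 in liver over spleen (16 higher and 1 lower) and 13 in spleen over lymph node (8 higher and 5 lower), where 37.5%, 25.6% and 18.2% of all tested genes were called. Their median log2 folds were 0.46, 0.24 and 0.05, against 0.01, 0.02 and 0.01 over all genes. In Il2rb cells, 15 of 40 tested genes of these lists were called in liver over lymph node (12 higher and 3 lower, against 17.5% of all genes), 12 in liver over spleen (11 higher and 1 lower, against 15.6%) and 5 in spleen over lymph node (1 higher and 4 lower, against 4.41%). Ubash3a, which damps TCR signalling, had 31.9 and 23.4 CPM in liver, 15.5 and 14.4 CPM in spleen and 4.28 and 6.29 CPM in lymph node, and liver over lymph node was 2.33 ± 0.25 (adjusted p = 6.65e-09). Rasgrp1, which activates Ras downstream of Lat, had 228.5 and 200.1 CPM in liver, 99.5 and 107.5 CPM in spleen and 106 and 111 CPM in lymph node, a rise of 0.97 ± 0.12 over spleen (adjusted p = 3.2e-07).

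Among the other named genes higher in liver than in lymph node were Plcg1, the phospholipase recruited by Lat (1.12 ± 0.17), the adaptor genes Nck2 (1.23 ± 0.24) and Themis (1.06 ± 0.15), and Malt1 (1.00 ± 0.23), part of the route to NF-κB. The ubiquitin ligase genes Cblb (0.98 ± 0.17) and Cbl (0.66 ± 0.12), the coreceptor gene Cd4 (0.95 ± 0.15), and Fyn (0.45 ± 0.12) and Txk (0.49 ± 0.12), both kinases, were higher as well. Txk was however highest in spleen, with liver over spleen called at -0.36 ± 0.12 (adjusted p = 0.0263). Others were lower in liver than in lymph node, as Cd3e was. The costimulatory receptor gene Cd28 had 385 and 383 CPM in liver, 436.5 and 411 CPM in spleen and 727 and 778 CPM in lymph node, or -1.03 ± 0.12 for liver over lymph node. Sit1 (-0.97 ± 0.12), Ubash3b (-0.79 ± 0.14) and the adaptor gene Grb2 (-0.77 ± 0.12) were also lower in liver than in lymph node. Against spleen Cd28, Sit1 and Ubash3b were not called, and Grb2 was higher in liver (0.52 ± 0.13, adjusted p = 0.00266), unlike Cd3e. The folds over lymph node had adjusted p below the threshold in edgeR, the largest being 0.0036 for Fyn.

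Genes that follow TCR triggering and cell handling moved with the lymph node libraries. The 6 immediate early genes summed to 6595 and 7147 CPM in lymph node, 1390 and 1152 CPM in spleen and 774 and 748 CPM in liver, and 6 of 6 were lower in liver than in lymph node, with a median log2 fold of -3.60. The TCR response list summed to 301 and 306 CPM in lymph node and to 114 to 165 CPM in the other libraries, with 5 of 5 tested genes lower in liver than in lymph node. The genes of both lists were called there, where 37.5% of all tested genes were called. The part of these signals in the differences of Cd3e, Cd3g, Cd247 and Lck was not tested. In Ccr6 over Il2rb cells of the lymph node, 10 of 41 pathway genes were called (2 higher and 8 lower), against 9.31% of all 9595 genes, with a median of -0.15 against -0.01 over all genes. Cd28 (-1.07 ± 0.09), Cd2 (-1.04 ± 0.14) and Cd4 (-3.81 ± 0.59) were lower in Ccr6 cells, and Rasgrp1 (1.01 ± 0.21) and Txk (0.37 ± 0.12) were higher.

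Genes whose levels followed those of the 9 most closely over the 6 libraries were found by the distance between centred log2 levels among 3279 genes with a mean of at least 50 CPM. For Cd3e they were Zcchc10 (distance 0.138), Asf1a (0.174) and Tmem70 (0.174), with Pearson's r of 0.982 to 0.998, and for Cd3g Vgll4, Sepw1 and Camk4 (0.0895 to 0.127). For Lck they were Gpx4, Rbm5 and Spata13 (0.0993 to 0.116), for Cd3d Ndufb3, Chmp2a and Mea1 (0.0875 to 0.101) and for Cd247 Rala, Malat1 and Rgs19 (0.0663 to 0.109). Lat was nearest to Adrm1, Sap18 and Sept11, Cd5 to Zfp593, Lsp1 and Sf3a3, and Cd6 to Hnrnpa2b1, Cd82 and Ociad1. None of the 9 genes was among the nearest 3 of another. The 6 points share their organ and depth, and the likeness is a description only.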

How the data were processed

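Per the study's methods, the authors prepared 10x Genomics 3′ libraries, and alignment to mm10, UMI counting and the choice of cell barcodes were done in Cell Ranger 3.1.0. The deposited matrices hold raw UMI counts per gene and barcode, and other values (names of genes and barcodes) are in deposited lists beside them. Counts were available for 6 libraries. With the study's limits, cells needed 300 to 4000 genes and at most 15% mitochondrial UMIs, which removed 55 of 16587 barcodes. The study states fewer cells after its filters, and this was not resolved here. No doublet caller was run; its double mark of Xist with a Y gene could not occur, since each library held only one of them. The 169 ribosomal, rRNA and haemoglobin genes (23.2% to 34.4% of UMIs) stayed out of totals.

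UMIs were summed per library, the unit of every test, over all cells or over cells with Il2rb or Ccr6 UMIs; sums of under 10 cells were not used. CPM are counts per 1000000 remaining UMIs. Organs were compared in 1 fit over 6 libraries with edgeR 4.0.16 under R 4.3.3 (TMM scaling, filterByExpr at minimum count 10, robust glmQLFit, glmQLFTest), and cell sets with library as a block. A call needed an adjusted p (Benjamini-Hochberg over all tested genes) under 0.05. The SE is the fold over the root of its F statistic. The procedure was tested on simulated counts drawn independently for each sum, with no effect of a library shared by its cell sets. Libraries of an organ differed beyond sampling noise (chi-square per degree of freedom 3.30 to 6.97). The study's methods call the 2 libraries of an organ biological repeats, without saying how many mice each held.

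The 9 genes, the lists and the tests were chosen with earlier results of these data known. Named besides the 9 were up to 15 pathway genes called with at least a 1.5-fold change in an all-cell comparison, by size of change, and for each of the 9 the 3 genes nearest in level (for Zap70 not reported here); Cd2 was added after its value was seen. Positions came from GENCODE vM21 by Ensembl identifier and promoters from RefSeq (GRCm38.p6), which matched 8 of 9 genes. Cell Ranger's annotation version is not given in the sources used here. Alternatives were RLE and total-count scaling, no low-count filter, DESeq2 1.42.0, ribosomal genes kept, all barcodes, the top 2% of cells by UMIs left out, thinned libraries, thinned cells, cells with both UMIs kept, a replicate block and leaving out each library.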

Additional observations from a re-analysis of the deposited data

How the results depend on the processing

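Of 1008 values of single genes under alternatives, 944 kept their side of the threshold, 51 lost a call, 13 gained one and 0 called values reversed; 63 of those kept were uncalled in both settings with opposite signs. For liver over spleen in all cells, where 1 of the 9 genes was called, total-count scaling and no low-count filter gave 2. The replicate block gave 4 there, adding Zap70 (higher), Cd3d and Lat (lower), with 3030 of 10190 genes called against 2610, and changed no other count by more than 1.5 times. Replicate numbers were shared by the organs in the labels, but each comparison had only 2 of them, and the pairing was not taken as part of the design. Deviations of same-numbered libraries correlated across 3000 genes with r of 0.142 to 0.246. For spleen over lymph node, 2 became 0 with RLE scaling or with ribosomal genes kept and 1 with total-count scaling. In Il2rb cells, liver over spleen went from 1 to 0 with thinned libraries. Liver over lymph node went from 2 to 1 with total-count scaling, no low-count filter, thinned libraries or thinned cells. With thinned libraries, calls over all genes fell as well, from 1275 to 368 and from 1427 to 850. With thinned cells they fell from 1427 to 459 for liver over lymph node. They did not fall alike there with total-count scaling (1422) or no low-count filter (1489). Ccr6 over Il2rb cells went from 5 to 2 with DESeq2 and 3 with thinned cells, and over all genes from 893 to 452 and 255. Leaving out 1 library in turn gave 0 to 3 calls for liver over spleen, 2 to 3 for liver over lymph node and 0 to 2 for spleen over lymph node. In Il2rb cells it gave 0 to 1, 1 to 2 and 0 to 0 calls in the same order, 1 to 6 for Ccr6 over Il2rb cells and 0 to 0 for the differences between organs. A lone library was then assumed to vary like the others, and the cause of these shifts was not tested. The summed CD3 level was lower in liver than in lymph node by -0.28 (log2), by -0.44 with ribosomal genes kept and by -0.35 to -0.20 with 1 library left out, an alternative added after the data were seen. The Cd247 share was higher in liver by 0.112 percentage points, but the same step gave -0.158 to 0.382, with the direction turned without liver replicate 1 or lymph node replicate 2. Over all genes, DESeq2 called 1418 against 2610 for liver over spleen, and 2559 against 3825 for liver over lymph node. Depth limits Cd5 most, with 11 UMIs in its smallest tested sum.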
